A study of Sus scrofa with 9 samples.

Results

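The genes described here encode proteins that cut and join pre-messenger RNA or package it, together with the DEAD-box helicases that remodel RNA. They were chosen by symbol: every probe set annotated to exactly 1 gene symbol that starts with SRSF, SF3A, SF3B, SNRP, HNRNP, PRPF, U2AF, LSM or DDX. That gave 125 of 23999 endogenous probe sets on the array and 83 of 6765 annotated genes. The rule itself uses symbols and no signal. The DDX prefix also takes in helicases that do not act in splicing, so these were kept in groups of their own.

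The samples were mammary gland biopsies of 6 Large White sows fed a corn and soybean diet, each biopsied in late pregnancy, 17 days (within 2) before farrowing, and in lactation, 1 and 17 days past it; these are called day -17, day 1 and day 17. The labels name no treatment, and the groups differ in reproductive stage. Total RNA of 2 sows was mixed in equal volumes per array, which gave 3 pools on each day and 9 Affymetrix porcine GeneChips. Because each value already averages a pair of animals, the spread between pools understates the spread between sows, and the p-values measure the spread between pools only. The same sows were biopsied on all 3 days, so arrays of different days are not independent, while the main test treats them as if they were.

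Splicing is carried out by the spliceosome, an assembly of small nuclear ribonucleoproteins (snRNPs). Each snRNP holds a small nuclear RNA on a ring of Sm or LSm proteins, and U1 and U2 snRNPs mark the start of the intron and its branch point. SR proteins bind exons and mostly favour their use, while heterogeneous nuclear ribonucleoproteins (hnRNPs) coat nascent transcripts and often act against them. The levels of these factors tend to be high in growing and dividing tissue. In the mammary gland, alveolar growth runs through pregnancy, and the secreting epithelium then makes large amounts of a few milk protein messages.

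Signals are MAS5 intensities on a linear scale, scaled so that every array has the same trimmed mean (500.088 to 500.112). Differences are in log2 units, each ± its standard error from limma (n = 3 pools a day), and a gene was called when its p-value, adjusted by the Benjamini-Hochberg method over all 15519 tested probe sets, was under 0.05. Within a day, signals of pools correlated over probe sets (no independent points) with a Spearman rho of 0.954 to 0.976. The 21 E. coli control probe sets, for RNA that is normally added in fixed amounts, had mean log2 signals of 10.8 to 10.9 on day -17, 11.2 to 11.4 on day 1 and 12.1 to 12.2 on day 17. Scaling to them (E. coli scaling) lowers each log2 difference by 0.43 for day 1 against day -17, 0.87 for day 17 against day 1 and 1.30 for day 17 against day -17, so every direction below is relative to the mean signal of the array. The ratio of 3 prime to 5 prime control probe sets, a sign of RNA quality, also moved with the day: in log2 it was 2.81 to 2.86, 3.07 to 3.26 and 3.86 to 3.99 for actin on the 3 days and 1.25 to 1.62, 1.17 to 1.21 and 0.82 to 0.98 for GAPDH. For EF1a the ratio was 0.34 to 0.52, 0.39 to 0.63 and 0.85 to 0.996. On day 17 the ratio was thus highest for actin and EF1a and lowest for GAPDH. Its part in the results was not tested. Among markers of the labelled tissue, 8 of 11 tested genes of the secretory epithelium were called on day 1 against day -17, each of them higher. The other 3 were not called and lay below 0 (lowest -1.33), 2 of them at an unadjusted limma p under 0.05.

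Of the 125 member probe sets, 117 passed the filter on dim signals, and 80 of the 83 genes had at least 1 of these. The 3 genes without one were DDX4, a germ cell helicase, DDX25, a testis helicase, and DDX60, an interferon-induced helicase. A gene with several tested probe sets (26 genes) is counted and named by the one with the highest mean signal. Log2 differences of these probe sets had both signs in 13 of the 26 genes for day 1 against day -17. The same held for 10 for day 17 against day 1 and 8 for day 17 against day -17. Opposite calls were found in 1, 0 and 3 genes in turn. Counts over the members that passed describe them and are not support for a shift, and their levels in tissue RNA do not tell fewer cells of a type from less RNA per cell.

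Most called changes of these genes were falls. In limma, 39 of the 80 genes differed among the 3 days by an F test, beside 47.8% of all genes, so as a set they changed about as often as other genes. Over probe sets this was 53 of 117, beside 45.3% of all, and 33 without day 17 pool 2. In the pairwise comparisons, by the brightest probe set, 32 genes were called lower and never higher and 7 higher and never lower. Another 2 were called in both directions (SNRPB and SRSF12) and 39 in neither. Other probe sets were called lower for SRSF6 and LSM12 among the 7 and for HNRNPK, SRSF10 and SRSF11 among the 39. For SF3B1 and SNRPG, among the 32, another probe set was called higher. The split by brightest probe set was not counted over all genes, so it is a description. Shares of all genes follow for each comparison.

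From day -17 to day 1, 4 of the 80 genes were called higher and 7 lower, beside 15.3% and 10.4% of the 5670 genes tested (25.7% in either direction). By their brightest probe sets the higher genes were SRSF12, HNRNPA2B1, SNRPB and SRSF6, which had 3 other probe sets called lower, and the lower ones SRSF4, SRSF5, HNRNPA1, HNRNPDL, HNRNPH3, SNRPN and DDX1. Over probe sets 4 of 117 were higher and 14 lower, beside 12% and 12.1% (24.1% in either direction). The median log2 difference of the 80 genes was -0.12, against 0.0012 after median centring. That of all tested probe sets was -0.065, against 0.053 after the same centring. The split of 4 higher and 7 lower became 5 and 5 after median centring and 3 and 11 after quantile normalization, and with E. coli scaling 46 were called, each lower, where 39.7% of all genes were lower. Without day -17 pool 3 the 18 called probe sets became 11, and without day 1 pool 3 they became 9.

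From day 1 to day 17, 1 gene was called higher and 18 lower, beside 8.02% and 8.57% of all genes (16.6% in either direction). The median log2 difference of the 80 genes was -0.21, that of all genes -0.035. Over probe sets 2 were higher and 19 lower, beside 7.02% and 6.61% (13.6% in either direction). These 21 probe sets became 11 without day 1 pool 3, 13 without day 17 pool 1, 13 without day 17 pool 2 and 9 without day 17 pool 3. Under E. coli scaling 74 genes were called, each lower, where 76.6% of all genes were lower.

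From day -17 to day 17, 6 genes were called higher and 29 lower, beside 23.8% and 23.8% of all genes (47.6% in either direction). The median log2 difference of the 80 genes was -0.36, that of all genes -0.032. Over probe sets 9 were higher and 40 lower, beside 21.7% and 24.8% (46.5% in either direction). With E. coli scaling 75 genes were called, each lower, where 83.8% of all genes were lower. These shares of all genes (25.7%, 16.6% and 47.6% called in the 3 comparisons in turn) are the background for the counts by role that follow, and with 4 to 17 genes a role the counts are descriptions. The comparisons share days, so their counts are not separate lines of support.

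**Figure D1:**
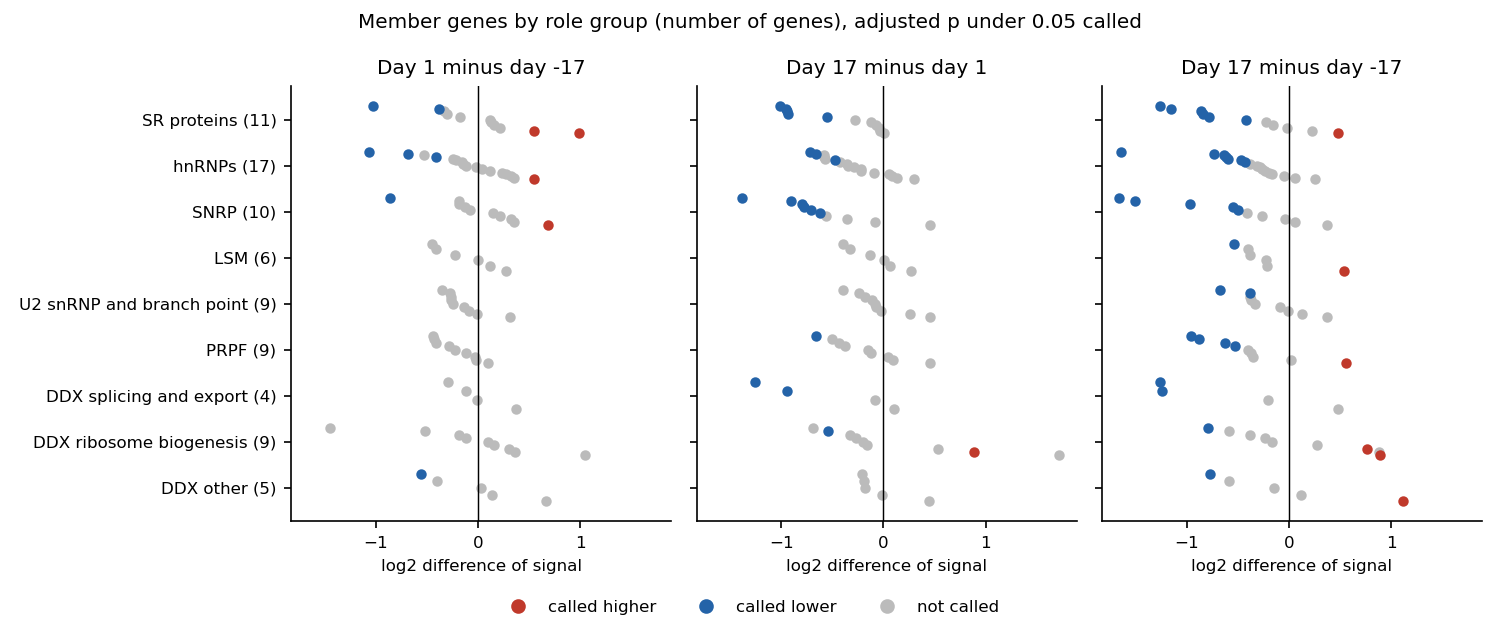
Log2 differences of the 80 tested member genes in the 3 comparisons (x axis, log2 units), grouped by role (rows, with the number of genes). Each point is 1 gene, red if called higher, blue if called lower and grey if not called; from day 1 to day 17 the called genes lie below 0 except DDX21, and the lowest of them is SNRPD1.

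**Figure D2:**
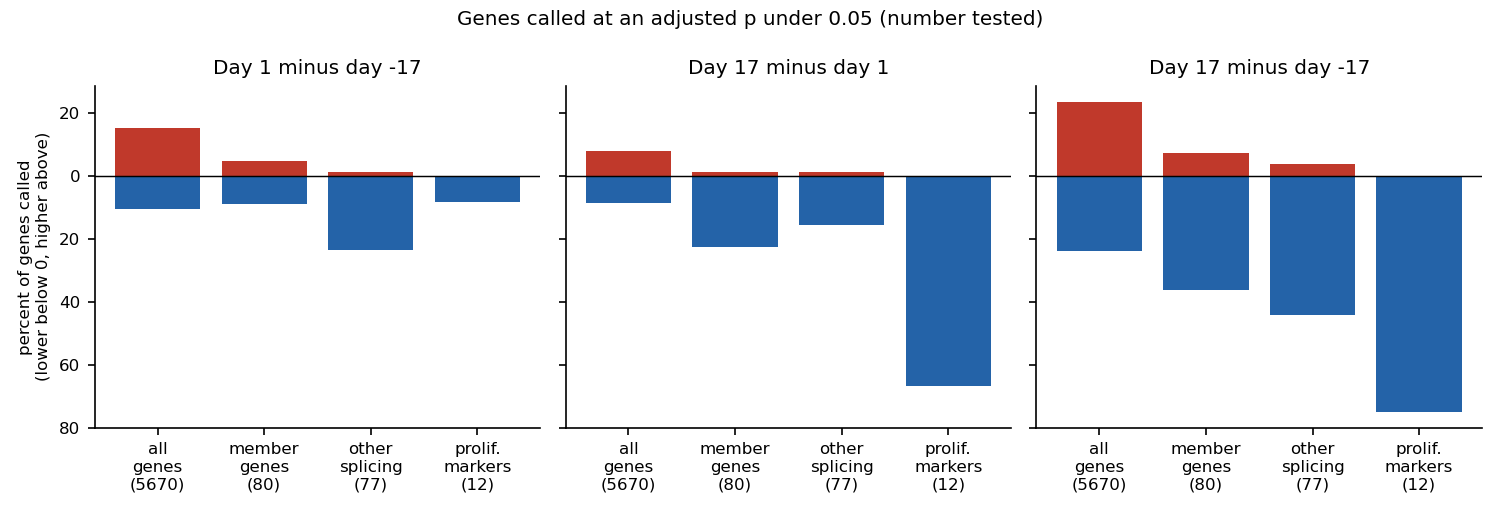
Percent of genes called higher (red, above 0) and lower (blue, below 0) among all 5670 genes, the 80 member genes, 77 other splicing genes and 12 proliferation markers in each comparison. Of the member genes 22.5% were lower from day 1 to day 17, against 8.57% of all genes and 66.7% of the proliferation markers.

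Of 11 SR protein genes, 5 were called from day 1 to day 17, each lower, with a median log2 difference of -0.27. The 5 were SRSF1, SRSF2, SRSF3, SRSF7 and SRSF12. On day 1, 2 were higher and 2 lower than on day -17, and on day 17, 1 was higher and 6 lower than on day -17. Both counts of higher genes include SRSF6 by its brightest probe set, against which others of its probe sets were called lower.

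SRSF3, the smallest SR protein, which also helps export messenger RNA, read 4251, 4402 and 5262 on day -17, 4921, 4499 and 6142 on day 1 and 2705, 2664 and 2675 on day 17. Every day 17 pool lay below all 6 others, and the 3 of that day differed little. SRSF3 did not pass from day -17 to day 1 (0.16 ± 0.14, adjusted p = 0.44) and fell by 0.94 ± 0.14 from day 1 to day 17 (1.92-fold, limma adjusted p = 0.00366).

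SRSF7, another SR protein that shuttles between nucleus and cytoplasm, read 3341, 4509.7 and 3349 on day -17, 3952, 3716 and 4365 on day 1 and 2417, 2035 and 1806 on day 17. Its days -17 and 1 overlapped and day 17 lay below both. SRSF7 fell by 0.95 ± 0.16 from day 1 to day 17 (1.93-fold, limma adjusted p = 0.00561).

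SRSF1, the founding splicing factor of the family, read 2789, 3553 and 2681 on day -17, 2192, 2264 and 2697 on day 1 and 1331, 1122 and 1283 on day 17. The pools of day 17 were again the lowest, while 1 pool of day 1 lay inside the range of day -17. It did not pass from day -17 to day 1 (-0.33 ± 0.15, adjusted p = 0.128), fell by 0.93 ± 0.15 from day 1 to day 17 (limma adjusted p = 0.00494) and was 2.4-fold lower on day 17 than on day -17 (adjusted p = 0.000127). Its 2 other probe sets differed from day 1 to day 17 by -0.59 ± 0.17, which passed (adjusted p = 0.0469), and -0.52 ± 0.25, which did not (adjusted p = 0.182).

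SRSF2, which binds exonic enhancers and marks nuclear speckles, read 6563, 8215 and 8619.8 on day -17, 5596, 6459 and 6853 on day 1 and 4573, 3892 and 4373 on day 17. The pools of day 17 lay below the other 6. It fell by 0.56 ± 0.14 from day 1 to day 17 (limma adjusted p = 0.025), and that call ended without pool 2 of day 1 (adjusted p = 0.0652), pool 3 of day 1 (0.0751), pool 1 of day 17 (0.0535), pool 2 of day 17 (0.0908) or pool 3 of day 17 (0.0672), and with no trend in the variance (0.0563). Against day -17 it was lower by 0.86 ± 0.14 on day 17 (adjusted p = 0.000747).

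SRSF5 was called lower from day -17 to day 1 and not from day 1 to day 17. This SR protein, also known as SRp40, read 2577, 2868 and 2812 on day -17, 1439, 1518 and 1115 on day 1 and 1341, 1221 and 1164 on day 17. All pools of days 1 and 17 lay below those of day -17, and days 1 and 17 overlapped. It fell by 1.03 ± 0.14 from day -17 to day 1 (2.04-fold, limma adjusted p = 0.000997) and by day 17 had not moved past the test again (-0.12 ± 0.14, adjusted p = 0.613). The difference between these steps did not pass (0.91 ± 0.25, limma adjusted p = 0.0618). SRSF4, a longer member with an extended arginine and serine domain, also fell to day 1, by 0.38 ± 0.11 (adjusted p = 0.03). That call ended without pool 2 of day -17 (adjusted p = 0.1), pool 3 of day -17 (0.0858), pool 2 of day 1 (0.0773) or pool 3 of day 1 (0.0542), and on median-centred values (0.129), with no trend in the variance (0.0568) or on the 6 arrays compared (0.0707). Against day -17 the fall of 0.42 ± 0.11 on day 17 was called (adjusted p = 0.0105).

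SRSF12, a dim member of the family described as an antagonist of other SR proteins, was high on day 1 alone. Its signals were 129, 195 and 226 on day -17, 319, 376 and 373 on day 1 and 204, 145 and 185 on day 17. All 3 pools of day 1 lay above the other 6, with a rise of 0.99 ± 0.24 (limma adjusted p = 0.0152) and then a fall of 1.01 ± 0.24 (adjusted p = 0.0223). The rise ended without pool 3 of day 1 (adjusted p = 0.0558) and the fall without pool 2 of day 1 (adjusted p = 0.0636), pool 3 of day 1 (0.0658), pool 2 of day 17 (0.0768) or pool 3 of day 17 (0.0571). With E. coli scaling the rise was 0.56 and not called (adjusted p = 0.0605).

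The 3 SR genes called in no comparison by their brightest probe set were SRSF9, SRSF10 and SRSF11, with log2 differences from -0.27 to 0.23. SRSF10 is known as a repressor of splicing in heat shock and mitosis, and another of its 4 tested probe sets, Ssc.14292.1.A1_at, was called lower on day 17 than on day -17 (-0.54 ± 0.16, adjusted p = 0.0197). Signals of SRSF9 were 3679.9, 4219.6 and 3951 on day -17, 3745, 5407 and 4786 on day 1 and 4617, 4772 and 4486 on day 17. Its day 17 pools lay above those of day -17 without passing the test (adjusted p = 0.198), and the other days overlapped.

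SRSF6 and SRSF11 gave different answers by probe set. SRSF6, an SR protein with wide roles in exon choice, had 6 tested probe sets, of which 1 was called higher and 3 lower on day 1 as well as on day 17, both against day -17. The 3 lower on day 1 became 1 without pool 1 of day -17, without pool 2 or pool 3 of day 1 and on the 6 arrays compared. Under E. coli scaling 5 were called on day 1 and 6 on day 17, each lower. The brightest, Ssc.17252.1.S1_at, read 1664, 2185 and 1772 on day -17, 2644, 2645 and 2907 on day 1 and 2816, 2562 and 2439.9 on day 17. It rose by 0.55 ± 0.13 to day 1 (limma adjusted p = 0.0142), a call that ended without pool 3 of day -17 (adjusted p = 0.0533) or pool 3 of day 1 (0.0523), and was higher by 0.48 ± 0.13 on day 17 than on day -17 (adjusted p = 0.013), a call that ended without pool 1 of day 17 (adjusted p = 0.0511) and whose sign turned with E. coli scaling (-0.82).

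The probe set Ssc.9241.1.A1_at of the same gene read 958, 1234 and 1236 on day -17, 735, 605 and 699 on day 1 and 576, 587 and 509.6 on day 17. It ran the other way, with all pools of days 1 and 17 below day -17, and fell by 0.74 ± 0.15 to day 1 (limma adjusted p = 0.0073). Ssc.7881.1.A1_at and Ssc.30743.1.S1_at, whose signals were close to each other on most arrays, fell by 1.36 ± 0.36 (adjusted p = 0.021) and 1.12 ± 0.31 (adjusted p = 0.0254). The mean over all 6 probe sets differed by -0.50 on day 1 (limma adjusted p = 0.0345) and by -0.68 on day 17 against day -17 (adjusted p = 0.00394), both opposite in sign to the brightest. What each probe set matches within the gene was not examined here, so a direction for SRSF6 as a gene is not given. The counts of genes take it by the brightest probe set alone.

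SRSF11 had 5 tested probe sets. The brightest, Ssc.17158.1.S1_at, passed in no comparison and differed by -0.18 ± 0.12 from day -17 to day 1. Next to it, Ssc.17158.2.A1_at read 4647, 5156 and 4333 on day -17, 2641, 2658 and 2066 on day 1 and 2028, 1526 and 2128 on day 17, which fell by 0.95 ± 0.16 to day 1 (limma adjusted p = 0.0029). The days -17 and 1 did not overlap there. Across the 5 the log2 differences on day 1 ran from -0.95 to 0.44, and 1 was called, lower. After quantile normalization, after median centring or without pool 1 of day 1, 1 of the 5 was called higher on day 1. From day -17 to day 17, 3 of the 5 were called, each lower, the largest fall being 1.33 ± 0.16. These 3 became 2 without pool 2 of day -17 and 4 after quantile normalization. Under E. coli scaling 3 were called on day 1 and 5 on day 17, both against day -17 and each lower.

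**Figure D3:**
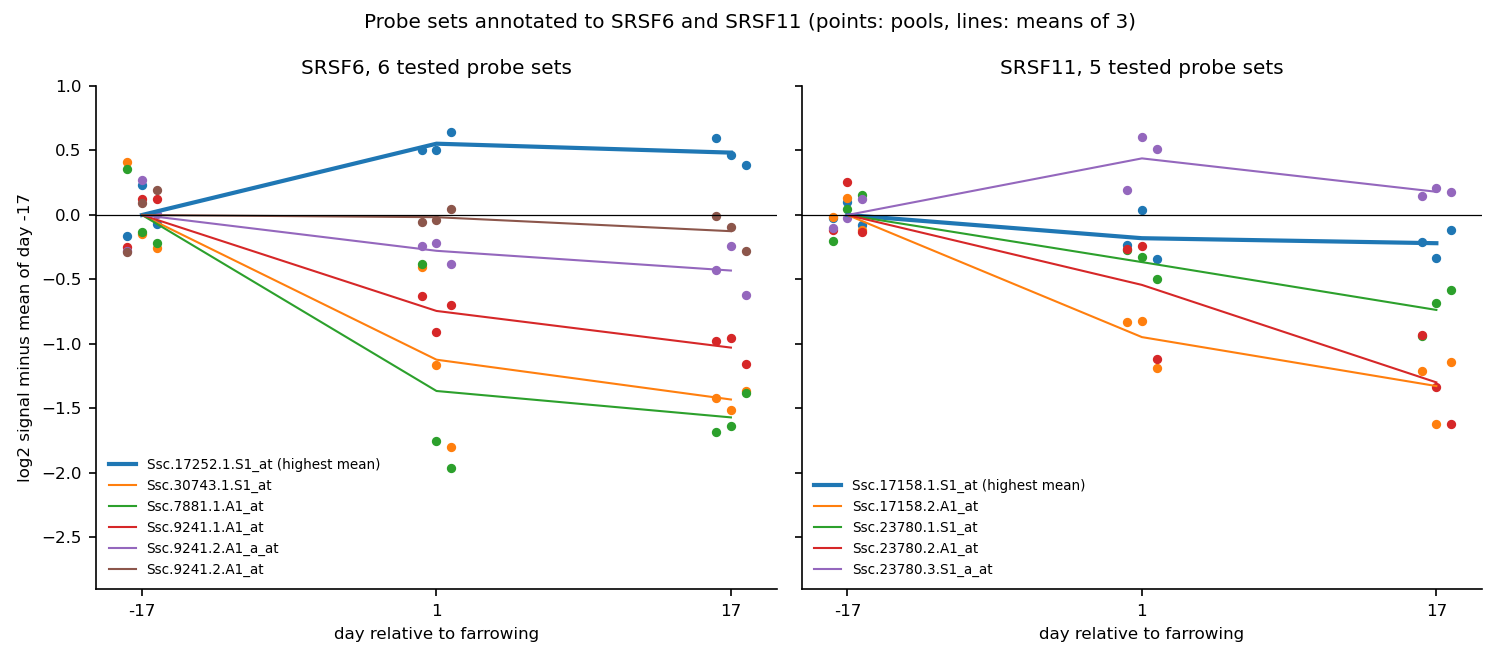
Log2 signal of each tested probe set of SRSF6 (6) and SRSF11 (5) minus its mean on day -17 (y axis), by day (x axis); points are pools and lines join the means of 3. For SRSF6 the brightest probe set lies above 0 on days 1 and 17 while the means of the others lie below, and for SRSF11 the 5 spread from 0.18 to -1.33 on day 17.

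Of 17 hnRNP genes, 1 was called higher and 3 lower on day 1 than on day -17 (23.5% in all, beside 25.7% of all genes). On day 17, 3 were called against day 1 (17.6%, beside 16.6%) and 7 against day -17 (41.2%, beside 47.6%), each lower. Most did not pass in either step. HNRNPA1, an abundant repressor of exon use, had the largest fall among them.

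Signals of HNRNPA1 were 9142, 12297 and 11600.2 on day -17, 4395, 6163 and 5250.5 on day 1 and 3263, 4194 and 3164 on day 17. The 3 days lay apart from each other, in falling order. It fell by 1.07 ± 0.17 to day 1 (2.09-fold, limma adjusted p = 0.00215) and was lower by 1.64 ± 0.17 on day 17 than on day -17 (3.11-fold, adjusted p = 6.59e-05). The second step missed the threshold (-0.57 ± 0.17, adjusted p = 0.0501) and passed with the pool number as a block (adjusted p = 0.0108).

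HNRNPA2B1, its close relative, went up rather than down on day 1. It read 8946, 10729.9 and 10002 on day -17, 12450.5, 14299 and 16679.8 on day 1 and 11266, 12339 and 11839 on day 17, with every pool of day 1 above every pool of day -17. The rise was 0.54 ± 0.13 (limma adjusted p = 0.0125), lost on quantile-normalized values (adjusted p = 0.101), and 0.11 and not called with E. coli scaling (adjusted p = 0.415). HNRNPA2B1 had 3 tested probe sets, and their average differed by 0.21 on day 1 and did not pass (adjusted p = 0.299). On day 17 against day -17 the dim Ssc.27382.1.S1_at was called higher (1.09 ± 0.27, adjusted p = 0.00855), as was the average (0.47, adjusted p = 0.0219), and the brightest was not (0.26 ± 0.13, adjusted p = 0.114). The third relative, HNRNPA3, read 4924, 5141 and 5099 on day -17, 4553, 4393 and 4733 on day 1 and 3283, 3046 and 3564 on day 17. It fell by 0.47 ± 0.10 from day 1 to day 17 (adjusted p = 0.0168), lost without pool 1 of day 17 (adjusted p = 0.0548) or pool 2 of day 17 (0.0679), and by 0.62 ± 0.10 from day -17 to day 17 (adjusted p = 0.00102).

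HNRNPH3, which binds guanine-rich RNA, read 2012, 2332 and 2124 on day -17, 1366, 1265 and 1375 on day 1 and 1285, 1417 and 1473 on day 17. It was lower in all 6 lactation pools than in late pregnancy. HNRNPH3 fell by 0.69 ± 0.12 to day 1 (limma adjusted p = 0.00308) and did not pass after that (0.06 ± 0.12, adjusted p = 0.775). Its relatives HNRNPH1, HNRNPH2 and HNRNPF passed in no comparison.

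HNRNPDL, a relative of the RNA decay factor HNRNPD, had 2 tested probe sets of unequal response. The brighter fell by 0.41 ± 0.13 to day 1 (limma adjusted p = 0.0491), a call lost in 12 of 18 alternatives, including without any 1 array other than day 1 pool 1 (adjusted p from 0.0575 to 0.156). The other, Ssc.6887.1.S1_at, read 3230.1, 3698 and 3633 on day -17, 1369, 1889 and 1333 on day 1 and 1462, 1579.9 and 1405 on day 17. Its day -17 lay above the other days, and it fell by 1.22 ± 0.15 (adjusted p = 0.000565).

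HNRNPR and HNRNPC were called from day 1 to day 17 and not before. HNRNPR, an RNA-binding protein of nascent transcripts, read 3385, 4093 and 3715 on day -17, 4096, 3874 and 4118 on day 1 and 2678, 2523 and 2190.5 on day 17. Day 17 lay below the other 6 pools, with a fall of 0.71 ± 0.12 from day 1 (limma adjusted p = 0.00608). Its fall from day -17 to day 17 (-0.60 ± 0.12, adjusted p = 0.00283) was not called when averaged with a dim second probe set (-0.29, adjusted p = 0.115). HNRNPC, which binds uridine tracts near splice sites, read 2423, 2608 and 2603 on day -17, 2768, 3134 and 3904 on day 1 and 2048, 2345 and 1787 on day 17. Day 1 was the highest day in all pools and day 17 the lowest. It fell by 0.66 ± 0.15 from day 1 (adjusted p = 0.0198), lost without pool 3 of day 1 (adjusted p = 0.0567), pool 1 of day 17 (0.0602) or pool 3 of day 17 (0.0751), and did not pass from day -17 to day 17 (-0.31 ± 0.15, adjusted p = 0.115).

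The other hnRNPs called lower on day 17 than on day -17 were HNRNPAB (-0.73), HNRNPD (-0.47) and HNRNPUL1 (-0.43). HNRNPD, an AU-rich element binding protein that speeds decay of messages, had a second probe set near its own level that differed by 0.03 ± 0.11 and did not pass (adjusted p = 0.835). By the brightest probe set HNRNPF, HNRNPH1, HNRNPH2, HNRNPK, HNRNPL, HNRNPM and HNRNPU passed in no comparison, with log2 differences from -0.58 to 0.32. A second probe set of HNRNPK, Ssc.16654.1.A2_at, also bright, was called lower on day 17 than on day -17 (-0.45 ± 0.12, adjusted p = 0.0131).

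**Figure D4:**
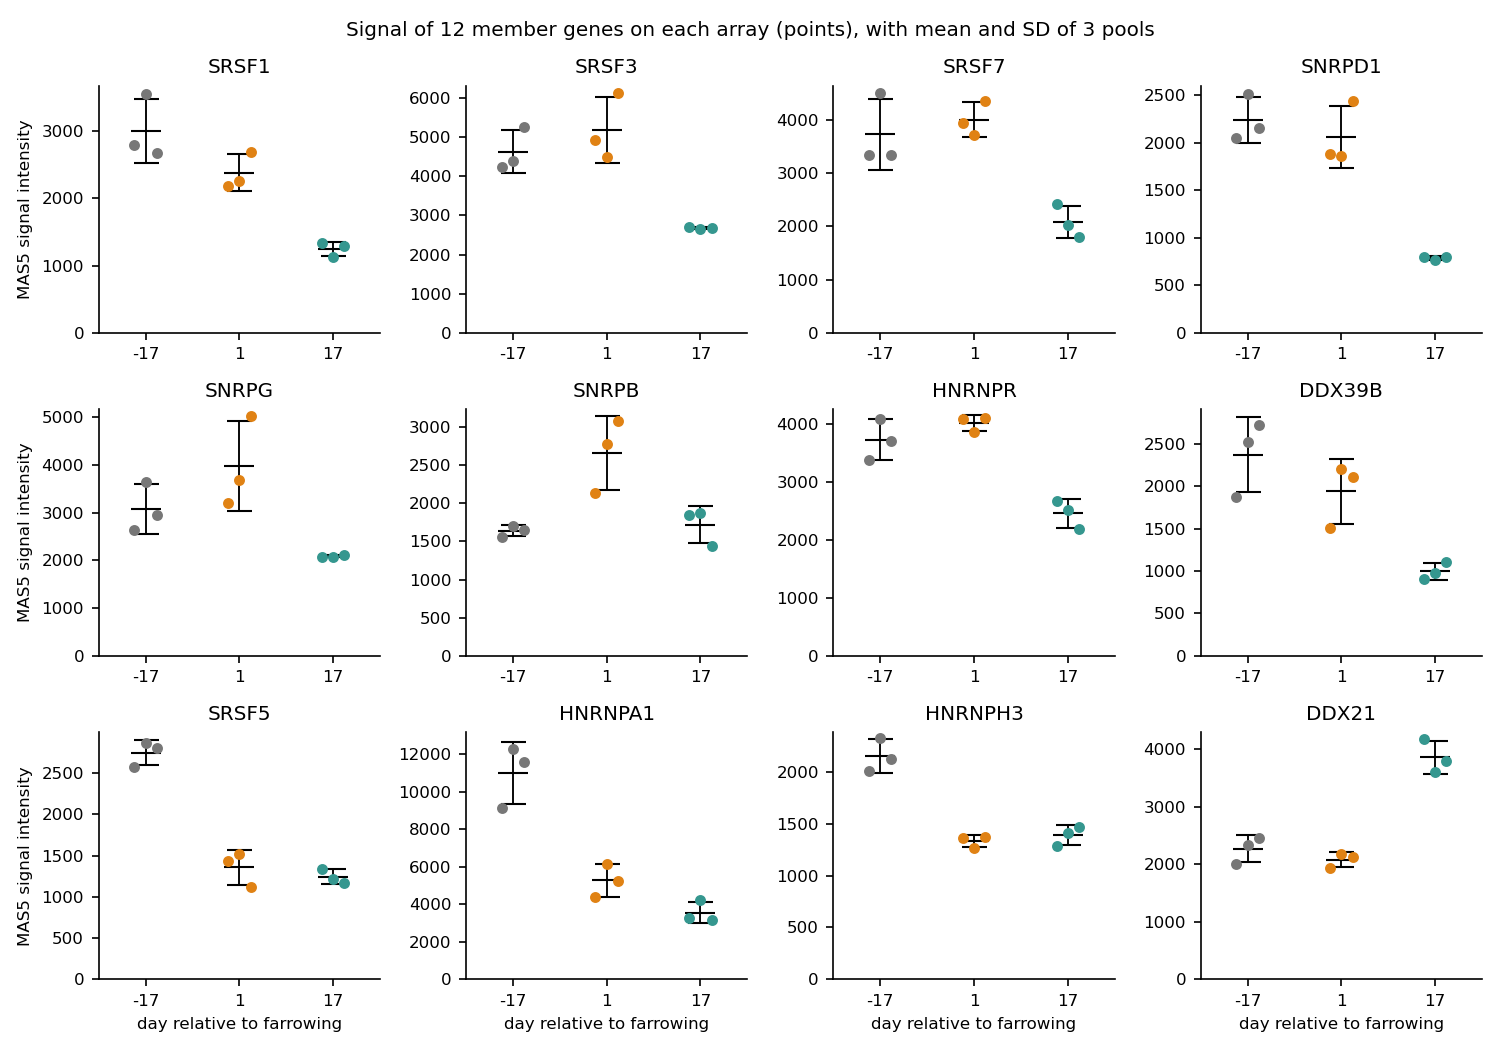
MAS5 signal intensity (y axis, linear, from 0) of 12 member genes by day (x axis), with each pool as a point and the mean and SD of 3 pools as a bar. SRSF3, SRSF7, SNRPD1 and HNRNPR drop after day 1, SRSF5 and HNRNPH3 drop before it, SNRPB is highest on day 1 and DDX21 is highest on day 17.

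The SNRP genes encode Sm core proteins and proteins particular to U1 or U2 snRNP. Of 10, 1 was called higher and 1 lower on day 1 than on day -17. On day 17, 6 were called against day 1 and 5 against day -17, each lower. Their median log2 difference from day 1 to day 17 was -0.67.

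SNRPD1, the Sm protein D1, had the largest fall of any member gene from day 1 to day 17. It read 2048, 2512 and 2153 on day -17, 1883, 1863 and 2439 on day 1 and 794, 764 and 801 on day 17. Days -17 and 1 overlapped, and the pools of day 17 lay far below all others. SNRPD1 fell by 1.38 ± 0.14 from day 1 (2.6-fold, limma adjusted p = 0.00113) and was 2.83-fold lower than on day -17 (adjusted p = 3.84e-05).

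SNRPG, the Sm protein G, read 2635, 3643 and 2952 on day -17, 3194, 3694 and 5018 on day 1 and 2069, 2079 and 2105 on day 17. Its highest pool was on day 1 and its day 17 pools lay within a narrow range below all others. It fell by 0.90 ± 0.18 from day 1 to day 17 (limma adjusted p = 0.0105), while a dim second probe set, Ssc.17917.1.A1_at, differed by 0.56 ± 0.31 (adjusted p = 0.25) and the average of both by -0.17 (adjusted p = 0.648). The fall from day -17 to day 17 of 0.55 ± 0.18 (adjusted p = 0.0266) ended without pool 2 of day -17 (adjusted p = 0.0984), pool 3 of day -17 (0.0556), pool 1 of day 17 (0.0672), pool 2 of day 17 (0.0657) or pool 3 of day 17 (0.0621), and on median-centred values (0.0628). The second probe set was called the other way in that comparison (1.22 ± 0.31, adjusted p = 0.0094), and the mean over both was 0.33 and not called (adjusted p = 0.238).

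SNRPB and SNRPN are a pair of related Sm proteins, since SNRPN encodes SmN, which can take the place of the SmB product of SNRPB. SNRPB read 1562, 1709 and 1645 on day -17, 2132, 2781 and 3079 on day 1 and 1845, 1874 and 1446 on day 17. It was high on day 1 in all 3 pools, rose by 0.69 ± 0.16 (limma adjusted p = 0.0135) and then fell by 0.62 ± 0.16 (adjusted p = 0.0312). The rise ended without pool 3 of day 1 (adjusted p = 0.054). The fall ended without pool 2 of day 1 (adjusted p = 0.0828), pool 3 of day 1 (0.0935), pool 1 of day 17 (0.0619), pool 2 of day 17 (0.0577) or pool 3 of day 17 (0.108), and with no trend in the variance (0.0563) or on the 6 arrays compared (0.0559). With E. coli scaling the rise was 0.26 and not called (adjusted p = 0.205).

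SNRPN, an imprinted gene, read 1044, 1605 and 1508 on day -17, 840.1, 573 and 879.8 on day 1 and 415, 470.2 and 410.2 on day 17. Its 3 days lay apart in falling order, except that 1 pool of day 1 came near day 17. It fell by 0.86 ± 0.21 to day 1 (limma adjusted p = 0.016), lost without pool 2 of day -17 (adjusted p = 0.0581), pool 3 of day -17 (0.0606) or pool 2 of day 1 (0.0503), by 0.80 ± 0.21 from there to day 17 (adjusted p = 0.0329), lost without pool 1 of day 1 (adjusted p = 0.0722), pool 3 of day 1 (0.0996), pool 1 of day 17 (0.0915), pool 2 of day 17 (0.0663) or pool 3 of day 17 (0.096), and with no trend in the variance (0.0524), and by 1.66 ± 0.21 over the whole time (3.16-fold, adjusted p = 0.000205). Averaged with its second probe set, the fall from day 1 to day 17 was not called (-0.65, adjusted p = 0.062). The second probe set, Ssc.3875.1.S1_a_at, differed by -1.31 ± 0.24 over the same span (adjusted p = 0.00156).

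SNRPA, the A protein of U1 snRNP, read 953, 1230.1 and 1154 on day -17, 785, 1125 and 1033 on day 1 and 558, 594 and 543 on day 17. Day 17 lay below the other 6 pools. It fell by 0.78 ± 0.17 from day 1 (limma adjusted p = 0.015), lost without pool 3 of day 17 (adjusted p = 0.0533), and by 0.97 ± 0.17 from day -17 (adjusted p = 0.00118). SNRPA1, a U2 snRNP protein, fell by 0.71 ± 0.16 from day 1 (adjusted p = 0.0183), lost without pool 3 of day 1 (adjusted p = 0.0593), pool 2 of day 17 (0.0648) or pool 3 of day 17 (0.0684). Against day -17 it was lower by 0.50 ± 0.16 (adjusted p = 0.0269), lost without pool 2 of day -17 (adjusted p = 0.0861), pool 3 of day -17 (0.0831), pool 2 of day 17 (0.0829) or pool 3 of day 17 (0.0921), and on quantile-normalized values (0.0717) or on median-centred values (0.0641). A dim second probe set of SNRPA1, Ssc.14146.1.A1_at, was not called on day 17 against day 1 (0.17 ± 0.24, adjusted p = 0.67) or day -17 (-0.27 ± 0.24, 0.374). SNRPB2, SNRPC, SNRPD3 and SNRPF passed in no comparison, with log2 differences from -0.56 to 0.45.

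U2 snRNP factors of the SF3A and SF3B complexes, which bind the branch point, and the U2AF genes make up 9 tested genes. Of these limma called 0 on day 1 against day -17, where 1 was higher and 1 lower at an unadjusted p under 0.05, and 0 on day 17 against day 1, where 1 was lower at that p. On day 17 against day -17, 2 were called, both lower. The smallest p in the first step was that of SF3B6, a branch point protein (0.31 ± 0.11, limma adjusted p = 0.0706), and in the second that of SF3A1 (-0.40 ± 0.15, adjusted p = 0.103).

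SF3A1 read 1608, 1843 and 2072 on day -17, 1294, 1721 and 1554 on day 1 and 1189.8, 1041 and 1219 on day 17. Day 17 lay below the other 6 pools, and the fall from day -17 was 0.68 ± 0.15 (limma adjusted p = 0.00484). SF3B1, the large subunit that holds the branch point, read 5971, 6397 and 6858 on day -17, 4983, 6017 and 5004 on day 1 and 4822, 4815 and 5077 on day 17. It fell by 0.38 ± 0.11 from day -17 to day 17 (adjusted p = 0.0185), lost without pool 3 of day -17 (adjusted p = 0.0697), pool 1 of day 17 (0.0554) or pool 2 of day 17 (0.0573), and on median-centred values (0.0725). A dim second probe set of SF3B1, Ssc.12295.1.A1_at, was called higher (0.82 ± 0.30, adjusted p = 0.0469), and the mean over both was 0.22 (adjusted p = 0.283). The remaining 7 genes had log2 differences from -0.38 to 0.46, and U2AF2, the large subunit of the factor that reads the polypyrimidine tract, was dim with signals of 60.1, 64.6 and 92.1 on day -17, 43.1, 106 and 65.6 on day 1 and 62.7, 109 and 113 on day 17.

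LSM proteins form a ring on U6 RNA or, in another make-up, take part in decay of messages. Of 6 LSM genes limma called 0 on day 1 against day -17 and 0 on day 17 against day 1, and at an unadjusted p under 0.05 there were 2 in each, all of them lower. On day 17 against day -17, 1 was higher and 1 lower. LSM7, of both rings, read 486, 625 and 579.8 on day -17, 381, 422 and 465 on day 1 and 428, 334 and 400.4 on day 17. It was lower by 0.54 ± 0.17 on day 17 (limma adjusted p = 0.0222), lost without pool 2 of day -17 (adjusted p = 0.0796), pool 3 of day -17 (0.0666) or pool 2 of day 17 (0.0812), and on quantile-normalized values (0.0884) or on median-centred values (0.0515).

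LSM12, which is in neither ring, was the higher one and read 251, 294 and 233 on day -17, 284, 306 and 347 on day 1 and 398, 397 and 333 on day 17. Its rise of 0.54 ± 0.17 (limma adjusted p = 0.025) ended without pool 1 of day -17 (adjusted p = 0.0623), pool 3 of day -17 (0.0863), pool 1 of day 17 (0.074) or pool 2 of day 17 (0.0743) and turned to -0.77 with E. coli scaling. The average of its probe sets was not called there (0.39, adjusted p = 0.075) and was called higher from day 1 to day 17 (0.68, adjusted p = 0.0252). Its other probe set, Ssc.28144.1.A1_at, dipped on day 1 (-0.84 ± 0.25, adjusted p = 0.0327) and came back by day 17 (1.09 ± 0.25, adjusted p = 0.0179). LSM2, LSM3, LSM6 and LSM14A passed in no comparison. With the pool number as a block, LSM6 passed on day 1 (-0.45, adjusted p = 0.037) and day 17 against day -17 (-0.38, 0.0435), as did LSM2 on day 17 against day -17 (-0.40, 0.0345).

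The PRPF genes encode proteins of the U4, U5 and U6 snRNPs and of later steps. Of 9, limma called 0 on day 1 against day -17, where 2 were lower at an unadjusted p under 0.05. On day 17, 1 was called lower than on day 1, and 1 higher and 4 lower than on day -17. PRPF3, a protein of the U4/U6 particle, read 626, 693 and 882 on day -17, 526, 633 and 630.3 on day 1 and 302, 426 and 409.8 on day 17. Its day 17 pools lay below all others.

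PRPF3 fell by 0.66 ± 0.19 from day 1 to day 17 (limma adjusted p = 0.0429), lost without pool 2 of day -17 (adjusted p = 0.0579), pool 2 of day 1 (0.107), pool 3 of day 1 (0.111), pool 1 of day 17 (0.131), pool 2 of day 17 (0.0643) or pool 3 of day 17 (0.0778), and on quantile-normalized values (0.0568), with the filter off (0.058), with no trend in the variance (0.0594) or on the 6 arrays compared (0.0565), and by 0.95 ± 0.19 from day -17 (adjusted p = 0.0026). PRPF19, a ubiquitin ligase of the catalytic spliceosome, was lower by 0.87 ± 0.19 (adjusted p = 0.00379), the kinase PRPF4B by 0.62 ± 0.15 (adjusted p = 0.00756) and the U1-associated PRPF39 by 0.53 ± 0.13 (adjusted p = 0.00947). PRPF39 missed the threshold on day 1 (-0.41 ± 0.13, adjusted p = 0.0508) and passed with the pool number as a block (adjusted p = 0.0479). The exception was PRPF18, a factor of the second splicing reaction, which read 923, 886 and 829 on day -17, 954, 1012 and 867 on day 1 and 1446, 1108 and 1348 on day 17. It was higher on day 17 in all 3 pools, by 0.56 ± 0.14 (adjusted p = 0.00871), and turned to -0.75 with E. coli scaling.

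Among the DEAD-box helicases, 18 genes had a tested probe set. On day 1, 1 was called, lower than on day -17. On day 17, 1 was higher and 3 lower than on day 1, and 3 were higher and 4 lower than on day -17. The 4 helicases of splicing and export were DDX19A, DDX39A, DDX39B and DDX46.

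DDX39B, which loads onto messages during splicing and export, read 1878, 2521 and 2720.3 on day -17, 1504, 2209 and 2109 on day 1 and 906, 977 and 1106 on day 17. Day 17 lay below the other days in all pools. It fell by 0.95 ± 0.19 from day 1 (limma adjusted p = 0.0115) and by 1.24 ± 0.19 from day -17 (2.36-fold, adjusted p = 0.00059). A dim second probe set differed by -0.13 ± 0.56 from day -17 and did not pass, and averaged with it the fall from day 1 was not called (-0.49, adjusted p = 0.194). Its close relative DDX39A read 481, 941 and 902 on day -17, 535, 762 and 989 on day 1 and 457, 262 and 247 on day 17. It fell by 1.26 ± 0.33 from day 1 (adjusted p = 0.033), lost without pool 2 of day 1 (adjusted p = 0.0764), pool 3 of day 1 (0.105), pool 2 of day 17 (0.104) or pool 3 of day 17 (0.11), and with no trend in the variance (0.0537), and by 1.26 ± 0.33 from day -17 (adjusted p = 0.0107). Averaged with a dim second probe set, the fall from day 1 was not called (-1.47, adjusted p = 0.053). DDX46 and the nuclear pore helicase DDX19A passed in no comparison, and on day 1 the smallest p was that of DDX19A (0.38 ± 0.23, adjusted p = 0.251).

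Helicases of the nucleolus and of ribosome assembly went both ways, with 9 genes tested. DDX21, which acts on ribosomal RNA, read 2006, 2336 and 2457 on day -17, 1935, 2174 and 2123 on day 1 and 4177, 3603 and 3785 on day 17. It stood apart on day 17, above all other pools, and was the only member gene called higher from day 1 to day 17 (0.89 ± 0.12, limma adjusted p = 0.00279). Its rise over day -17 was 0.77 ± 0.12 (adjusted p = 0.000771). With E. coli scaling these were 0.02 (adjusted p = 0.897) and -0.53 (0.00107). Its neighbour in sequence, DDX50, ran the other way and read 518, 707 and 613 on day -17, 389, 563 and 346 on day 1 and 355, 355 and 340.4 on day 17. It fell by 0.79 ± 0.20 from day -17 to day 17 (adjusted p = 0.00886).

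DDX55, of the large ribosomal subunit, read 179, 283 and 246 on day -17, 337, 292 and 267 on day 1 and 376, 476 and 441 on day 17. It was higher on day 17 than on day -17 by 0.89 ± 0.20 (limma adjusted p = 0.00553), against -0.41 with E. coli scaling. DDX47, which works on ribosomal RNA, read 504, 613 and 604 on day -17, 682, 674 and 757 on day 1 and 494, 429 and 537 on day 17. Day 1 lay above the other days, which overlapped. It fell by 0.54 ± 0.15 from day 1 (limma adjusted p = 0.0391), lost without any 1 array other than day -17 pool 1 (adjusted p from 0.0515 to 0.124) and in 4 other alternatives. DDX27, DDX49, DDX51, DDX54 and DDX56 passed in no comparison, with log2 differences from -1.44 to 1.72, both of DDX54. DDX54 was dim, with 2 pools of day 1 at 21.3 and 17.7. DDX49 differed by 1.04 ± 0.47 from day -17 to day 1 (limma adjusted p = 0.129).

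Of the 5 other helicases, DDX1, linked to RNA repair and transport, read 1402, 1587 and 1465 on day -17, 1177, 861 and 999 on day 1 and 842, 957 and 808 on day 17. It fell by 0.56 ± 0.15 to day 1 (limma adjusted p = 0.0212), lost without pool 2 of day -17 (adjusted p = 0.0694), pool 3 of day -17 (0.0582), pool 2 of day 1 (0.071) or pool 3 of day 1 (0.0595), and by 0.77 ± 0.15 over the whole span (adjusted p = 0.00205). Its second probe set did not pass (-0.05 ± 0.17, adjusted p = 0.839), and the average of both was not called on day 1 (-0.22, adjusted p = 0.309). DDX11, a DNA helicase of chromosome cohesion, read 87.2, 193 and 217 on day -17, 235, 218 and 286 on day 1 and 433, 344 and 250.4 on day 17. It was higher on day 17 by 1.12 ± 0.34 (adjusted p = 0.0212), lost without pool 1 of day -17 (adjusted p = 0.0515), pool 1 of day 17 (0.0804) or pool 2 of day 17 (0.0569), and -0.19 with E. coli scaling. DDX58, the viral RNA sensor RIG-I, DDX6, a helicase of messenger RNA storage, and DDX20, a partner of the SMN protein that assembles snRNPs, passed in no comparison.

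By the calls, 15 of 80 genes were lower in the second step and not called in the first, beside 6.08% of all genes, and 6 were lower in the first and not called in the second, beside 8.47%. A step not called is not shown to be level: HNRNPA1, among the 6, had 3 days that lay apart. Of the rest, 53 were called in neither step (63.6% of all genes), 2 rose and then fell (1.27%), 2 rose in the first step and were not called in the second (11.4%), 1 rose only in the second step (4.69%), 1 fell in both (1.22%), and none fell and then rose (0.723%) or rose in both (2.61%). The difference between the steps was then tested itself, as the change from day 1 to day 17 minus the change from day -17 to day 1. In limma 6 of 80 genes passed, 1 positive and 5 negative, beside 1.75% and 4.64% of all genes (6.38% in either direction). The negative ones were SRSF3 (-1.10 ± 0.24, adjusted p = 0.0314), SRSF12, whose steps are given with the SR proteins (0.0275), SNRPB (-1.31 ± 0.28, 0.0295), SNRPD1 (-1.26 ± 0.25, 0.0215) and SNRPG (-1.26 ± 0.30, 0.0437), and the positive one was DDX21 (1.01 ± 0.21, 0.0278).

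After median centring 8 genes passed and with E. coli scaling 26, each negative, beside 5.52% and 18.9% of all genes that were negative. The calls were unequal in their hold: DDX21 missed the threshold after median centring (adjusted p = 0.0646) and with E. coli scaling (0.0787), and SNRPG after quantile normalization (0.0587). Each of these 6 calls ended without day 1 pool 3 (adjusted p from 0.0972 to 0.177), and leaving out single arrays ended it in 4 of 9 cases for SNRPD1 and SRSF12, 6 for SNRPB and SRSF3 and 7 for DDX21 and SNRPG. SRSF5 (0.91 ± 0.25, adjusted p = 0.0618) and HNRNPH3 (0.75 ± 0.21, 0.0654), which fell early, missed the threshold, as did SRSF7 (-1.07 ± 0.27, 0.0518) and HNRNPR (-0.83 ± 0.21, 0.0502). SRSF5 passed after quantile normalization (adjusted p = 0.0471), and SRSF7 (0.0329), HNRNPR (0.0323) and HNRNPC (0.0497) after median centring. HNRNPA2B1 passed with the pool number as a block (adjusted p = 0.0335).

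By the ranges of the pools alone, the days did not overlap for 27 of the 80 genes between days -17 and 1, 39 between days 1 and 17 and 51 between days -17 and 17. The same held for 41.3%, 37.6% and 60.8% of all genes. In the last of these, 43 of the 51 were lower on day 17, and the split by direction was not counted over all genes.

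Splicing genes outside the symbol rule were also called lower more often than higher. Of 123 listed genes (other snRNP proteins, splicing kinases, exon junction and export factors and snRNP assembly factors) 77 were tested. On day 1, 1 was called higher and 18 lower than on day -17, on day 17, 1 was higher and 12 lower than on day 1, and 3 were higher and 34 lower than on day -17, with median log2 differences of -0.18, -0.20 and -0.47. Of all genes, 15.3% were higher and 10.4% lower in the first of these, 8.02% and 8.57% in the second and 23.8% and 23.8% in the third, against 1.3% and 23.4%, 1.3% and 15.6%, and 3.9% and 44.2% of the list.

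RBM3, a cold-inducible RNA-binding protein, read 8391, 8449 and 8081 on day -17, 4586, 5520.5 and 4901 on day 1 and 2948, 2493 and 1767 on day 17. Its 3 days lay apart, and it fell by 0.74 ± 0.17 (limma adjusted p = 0.0128), then by 1.09 ± 0.17 (adjusted p = 0.00492), 3.53-fold in all. SART1, of the U4/U6.U5 tri-snRNP, fell by 1.40 ± 0.24 to day 1 (adjusted p = 0.00298), and CPSF6, a factor of message cleavage, by 1.01 ± 0.17 from day 1 to day 17 (adjusted p = 0.00656). CELF2, a splicing regulator, was lower by 1.92 ± 0.41 on day 17 than on day -17 (adjusted p = 0.00368). Its fall of 1.32 ± 0.41 to day 1 (adjusted p = 0.04) ended without pool 1 of day -17 (adjusted p = 0.12), pool 3 of day -17 (0.0763), pool 2 of day 1 (0.118), pool 3 of day 1 (0.147), pool 1 of day 17 (0.0538), pool 2 of day 17 (0.0574) or pool 3 of day 17 (0.0577), and on median-centred values (0.0537), with the filter off (0.0507), with no trend in the variance (0.064) or on the 6 arrays compared (0.0828). It also ended when its probe sets were averaged (0.0788).

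Few of those genes were called higher. SYNCRIP, an hnRNP-like protein, rose by 0.57 ± 0.16 to day 1 (limma adjusted p = 0.0301), lost without pool 1 of day -17 (adjusted p = 0.0776), pool 3 of day -17 (0.105), pool 2 of day 1 (0.0567) or pool 3 of day 1 (0.101), and on the 6 arrays compared (0.0513), and was not called with E. coli scaling (adjusted p = 0.493). CLK3, a kinase of SR proteins, rose by 0.62 ± 0.15 from day 1 to day 17 (adjusted p = 0.0222), lost without pool 2 of day 1 (adjusted p = 0.0532), pool 3 of day 1 (0.0606), pool 1 of day 17 (0.0766), pool 2 of day 17 (0.0569) or pool 3 of day 17 (0.0517). Against day -17 CLK3 was higher by 0.45 ± 0.15 (adjusted p = 0.0303), lost without pool 1 of day -17 (adjusted p = 0.103), pool 3 of day -17 (0.0714), pool 1 of day 17 (0.0984) or pool 2 of day 17 (0.0584), and ZMAT2, of the tri-snRNP, by 0.44 ± 0.16 (adjusted p = 0.0456), lost without pool 1 of day -17 (adjusted p = 0.0978), pool 2 of day -17 (0.0537), pool 3 of day -17 (0.128), pool 2 of day 1 (0.0584), pool 1 of day 17 (0.159) or pool 2 of day 17 (0.112), and with the filter off (0.0548), with no trend in the variance (0.0642) or with the pool number as a block (0.0521). With E. coli scaling CLK3 was -0.25 against day 1 and -0.86 against day -17, and ZMAT2 was -0.86 against day -17.

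Markers of dividing cells moved beside these genes. Of 19 listed, 12 were tested, and 8 were called on day 17 against day 1, each lower, with a median log2 difference of -1.64. Their mean log2 signal was 8.20 to 9.07 on day -17, 8.12 to 9.05 on day 1 and 6.72 to 7.07 on day 17. The 80 member genes had 10.1 to 10.35, 10.1 to 10.2 and 9.90 to 9.99. In both sets pools of days -17 and 1 overlapped and those of day 17 were the lowest. None of the dividing-cell markers was at 0, and the lowest signal of the list was 8.41.

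Markers of other cell types changed unevenly between days -17 and 17, beside 23.8% of all genes higher and 23.8% lower. Called lower were 6 of 7 fibroblast and matrix genes and 4 of 7 adipocyte genes, with 1 of the 7 adipocyte genes higher. Of 11 secretory epithelium genes 8 were higher and 2 lower. Of 6 myoepithelium and smooth muscle genes 4 were higher, of 4 macrophage genes 1 was higher and of 5 endothelium genes 1 was lower. Of 4 T and NK cell genes 0 were called, and the 1 neutrophil gene was not called. The mean log2 signal of the adipocyte genes was 8.32 to 10.4 on day -17, 7.01 to 9.03 on day 1 and 6.25 to 6.72 on day 17, and that of the fibroblast genes 11.4 to 11.9, 10.7 to 11.5 and 10.5 to 10.6. All 3 tested B and plasma cell genes were called higher on day 17 than on day -17. The part of any of these, or of cell division, in the falls of the splicing genes was not tested.

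**Figure D5:**
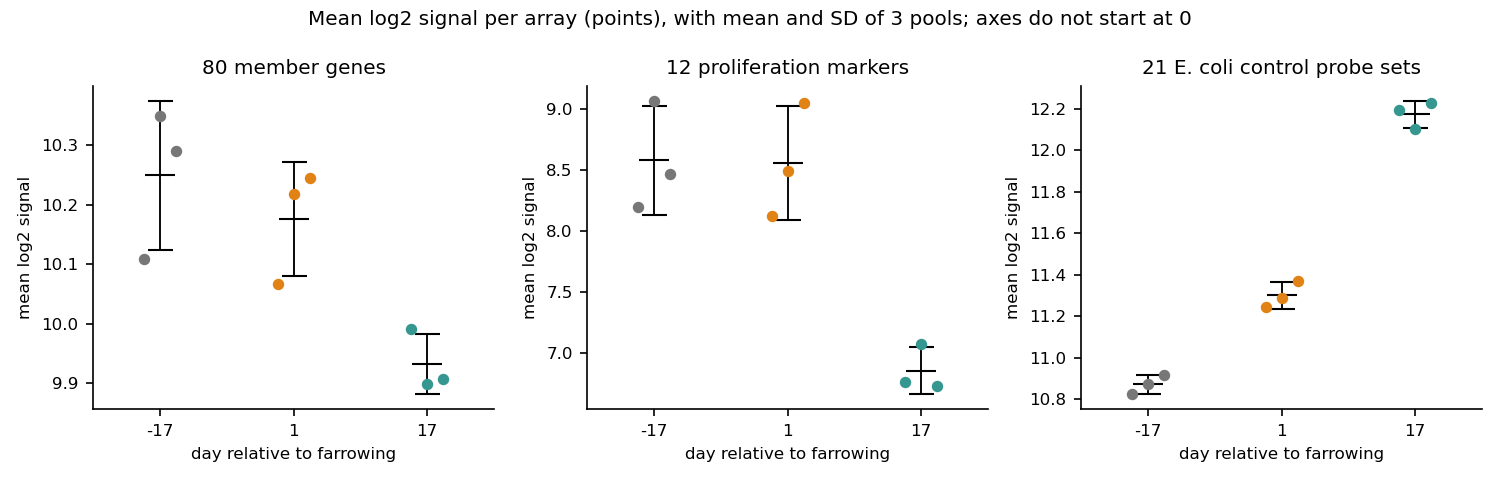
Mean log2 signal per array (y axis, log2 units, not from 0) of the 80 member genes, 12 proliferation markers and 21 E. coli control probe sets by day (x axis); points are pools and bars the mean and SD of 3. The member genes and the proliferation markers were lowest on day 17, and the controls were highest then.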

How the data were processed

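Mammary RNA of 9 pools (3 days, 3 pools each) was measured on Affymetrix porcine arrays. The authors deposited linear intensity values, 1 for each array and probe set. MAS5 is the tool that the submitters' processing notes name, with no version. Arrays have no depth, and their number limits the precision. The members and gene lists were chosen with earlier results of these data known.

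Gene symbols came from the platform annotation, which gave 10099 of 24123 probe sets 1 symbol, 198 several and 13826 none. All 125 members matched the RefSeq gene table by gene ID, and updated symbols left the membership as it was. Control probe sets (124) were left out. Testing was limited to probe sets whose signal reached the 40th percentile of the endogenous probe sets on at least 3 of 9 arrays. The log2 signals, with no pseudocount, were fitted over all 9 arrays in limma 3.58.1 (R 4.3.3), with day as the only term and an intensity trend. Tests were two-sided. An exact test of 3 against 3 pools cannot go below p = 0.1. The code was tested on simulated data.

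Named were, per comparison, the 5 largest called rises and falls, the member of smallest p in each role group and direction, genes with probe sets called in opposite directions and the 2 largest changes each way among other splicing genes. Further genes were named after their values were seen. The test of the difference between steps was added after the comparisons had been seen.

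Pools share the numbers 1 to 3, and the labels do not say that a number marks the same sows. Across probe sets, deviations from the day's mean of same-numbered pools correlated at 0.235 to 0.506 for day 1 against day -17 (others -0.387 to 0.113), 0.096 to 0.107 for day 17 against day 1 (others -0.0768 to -0.0268) and 0.105 to 0.13 for day 17 against day -17 (others -0.0739 to -0.0421). All 3 pairs exceeded 0.1 in the first and the last. The number was a block in alternatives. The other alternatives were quantile normalization, median centring, E. coli scaling, a pseudocount of 16, no filter, a 60th percentile filter, no trend, the 6 compared arrays alone, a minimum fold of 2, updated symbols, averaging the probe sets of a gene and each array left out.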

Additional observations from a re-analysis of the deposited data

How the results depend on the processing

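Counts of called member probe sets (18 for day 1 against day -17, 21 for day 17 against day 1, 49 for day 17 against day -17 and 53 by the F test) stayed within 1.5 times under both rescalings by quantiles and by medians, a stricter or absent filter, a pseudocount of 16, no trend, the 6 arrays alone where it applies, updated symbols and both blocks. Blocking on the pool number, they were 20, 26, 54 and 56. Of all genes, 17.1% were higher and 13.5% lower in the first comparison, 9.59% and 11.6% in the second, 25.2% and 26.6% in the third. With E. coli scaling the counts were 64, 104, 107 and 107. In the 3 comparisons 39.7%, 76.6% and 83.8% of all genes were then lower, and 6.56%, 0.723% and 3.16% higher. At a minimum fold of 2 the pairwise counts were 5, 4 and 17. Leaving out 1 array gave 9 to 24, 9 to 24, 41 to 52 and 33 to 58. Shares of all probe sets were not counted under these settings, so the counts show only how the member calls depend on them. Calls of member genes were also followed over the alternatives other than E. coli scaling, averaged probe sets and the minimum fold of 2. Of the 4 member genes higher on day 1 than on day -17, 0 kept their call in limma under all of these, and 3 of the 7 lower ones did. From day 1 to day 17 this held for the 1 higher gene and 7 of the 18 lower, and from day -17 to day 17 for 3 of 6 higher and 25 of 29 lower.

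Of 120 differences of 40 named genes, E. coli scaling turned the sign of 14 that were called neither with nor without it. It also turned 20 that were called with it or without it. Against day -17 on day 17 these were CLK3 (-0.86), DDX11 (-0.19), DDX19A (-0.82), DDX21 (-0.53), DDX55 (-0.41), HNRNPA2B1 (-1.04), LSM12 (-0.77), PRPF18 (-0.75), SF3B6 (-1.17), SNRPB (-1.24), SRSF6 (-0.82), SYNCRIP (-1.16) and ZMAT2 (-0.86). From day 1 to day 17 they were CLK3 (-0.25), DDX19A (-0.77), HNRNPH3 (-0.82), LSM12 (-0.61), LSM6 (-0.81), PRPF18 (-0.42) and ZMAT2 (-0.68). A mean over probe sets turned SF3B1 (0.22) and SNRPG (0.33) on day 17 against day -17 and SRSF6 on day 1 (-0.50) and day 17 (-0.68) against day -17. That mean also turned 5 differences that were called neither with nor without it. E. coli scaling shifts all differences by 1 amount. Other causes were not tested. The pool number as a block changed the call of 6 named differences, given with the results, and of no other named one. Signal over background could not be judged from these values.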
